A study of Drosophila melanogaster with 12 samples.

Results

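In the Drosophila ovary, terminal filament cells (TFCs) and cap cells (CpCs) sit at the anterior tip of each germarium and hold the germline stem cells, and escort cells (ECs) line the germarium behind them. Genes high in TFCs-CpCs and low in ECs were sought by a rule on levels: at least 10 cRPKM in all 4 TFCs-CpCs libraries, 2 of each age, and at most 2 cRPKM in all 8 EC libraries. The cRPKM is the number of reads of a gene per length of mappable transcript and per mapped reads of the library. Of 13726 genes with values, 2 were selected on these measured levels: Tetraspanin 42Ei (Tsp42Ei, FBgn0033130) and Shaker cognate l (Shal, FBgn0005564). Neither gene was at 0 throughout the ECs, so "confined to TFCs-CpCs" holds for them in the sense of these limits.

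The 12 libraries were bulk RNA-seq of sorted cells and formed 6 groups of 2. TFCs-CpCs came from 4w-old and 1w-old females carrying bab1-Gal4 and tau::GFP, as the cells with the strongest GFP signal. The bab1-Gal4 driver is also active, more weakly, in ECs. ECs of 4w-old and 1w-old females were GFP-positive cells of LexAop-mCD8::GFP; ptc-LexA females. Smu1 RNAi ECs and their control ECs both carried 13×LexAop-mCD8::GFP, ptc-LexA, tub-Gal80ts and ptc-Gal4, and the Smu1 RNAi females carried in addition UAS-Smu1 RNAi. These females were raised cool and moved to a warmer temperature as adults, and their ages are not matched to those of the ageing samples. Each sort pooled the ovaries of many females. By the study's methods, the females of an ageing replicate were divided from one batch, and RNAi and control females were reared and treated side by side. The labels do not tie a library number to a batch, so the main tests use no pairing and their p-values measure the spread between these libraries. The TFCs-CpCs and the ECs also differ in genotype and in the number of cells sorted, which cannot be told apart from cell type.

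The products of the genes belong to protein families with well known biochemistry. Tetraspanins are small proteins that cross the membrane several times and gather other membrane proteins, such as adhesion receptors, into domains, and in flies many of their genes lie in a tandem array that holds Tsp42Ei. Shal is the fly member of the Kv4 family of voltage-gated potassium channels. Channels of this family open upon depolarisation and inactivate quickly, and in fly neurons Shal carries much of the transient A-type current of cell bodies and dendrites.

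The total counts ranged from 37580263 to 52487930 in the 4 TFCs-CpCs libraries and from 12078227 to 16888122 in the 8 EC libraries. Of the marker genes of TFCs-CpCs, the homeobox gene en was at 71.4 and 298 cRPKM in 4w TFCs-CpCs and at 14.0 and 20.3 cRPKM in 1w TFCs-CpCs, against 0.32 to 3.19 cRPKM in ECs. LamC, a lamin of cap cells, was likewise above its highest EC level in every TFCs-CpCs library. The levels of bab1, bab2 and Wnt4 overlapped between TFCs-CpCs and ECs, and hh, a signal sent by cap cells, was lower in 1w TFCs-CpCs (5.35 and 7.65 cRPKM) than in any EC library (83.0 to 118 cRPKM). The EC marker ptc was lower in TFCs-CpCs (6.55 to 10.9 cRPKM) than in ECs (42.4 to 120 cRPKM). Smu1 was at 4.17 and 5.51 cRPKM in the Smu1 RNAi libraries, against 26.4 and 23.6 cRPKM in their controls.

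Tsp42Ei lies on chromosome arm 2R, from base 7035125 to base 7036949 on the plus strand (BDGP6 annotation, dm6 coordinates), with Tsp42Eh and Tsp42Ej as the nearest tetraspanin genes on its sides. The annotation gives it 2 transcripts and 4 exons with 1304 bases in all. Its last bases overlap the gene CG33914 on the opposite strand, which shares 14.0% of the exon bases. CG33914 itself was at 0.07 and 0.75 cRPKM in 4w TFCs-CpCs and at 0.95 and 2.1 cRPKM in 1w TFCs-CpCs. These levels were far below those of Tsp42Ei in the same libraries. In control ECs replicate 2 CG33914 was at 0.72 cRPKM, above Tsp42Ei at 0.37 cRPKM. It did not exceed Tsp42Ei in the other EC libraries. Shal lies on 3L, from base 19566851 to base 19584568 on the minus strand, with 3 transcripts and 8 exons of 4606 bases in all, none of them shared with another gene. The members are thus on different arms and are not neighbours of each other.

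Tsp42Ei had 18.9 and 27.6 cRPKM in 4w TFCs-CpCs and 155 and 117 cRPKM in 1w TFCs-CpCs. In ECs it was at 0 and 0.37 cRPKM at 4w, at 1.92 and 1.66 cRPKM at 1w, at 1.18 and 1.85 cRPKM in Smu1 RNAi ECs and at 0.50 and 0.37 cRPKM in control ECs. Both 1w TFCs-CpCs libraries were thus the highest of the 12, the 4w TFCs-CpCs libraries came next, and no EC library came near either. The library at 0 had no count of the gene, and a limit of 3 counts there allows up to 0.162 cRPKM, by counting error only. In the other 7 EC libraries Tsp42Ei rested on 6 to 28 counts, against 1109 to 7782 counts in TFCs-CpCs. Ordered by group mean, Tsp42Ei was highest in 1w TFCs-CpCs, then in 4w TFCs-CpCs, 1w ECs, Smu1 RNAi ECs, control ECs and 4w ECs. Within that order 1w ECs and Smu1 RNAi ECs overlapped, and control ECs and 4w ECs shared the value 0.37 cRPKM. The other neighbouring groups did not overlap.

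Shal was at 11.04 and 15.24 cRPKM in 4w TFCs-CpCs and at 34.2 and 23.7 cRPKM in 1w TFCs-CpCs. In ECs it was at 0.38 and 0.54 cRPKM at 4w, at 0.91 and 0.45 cRPKM at 1w, at 0.72 and 0.64 cRPKM in Smu1 RNAi ECs and at 1.45 and 1.19 cRPKM in control ECs. The 2 ages of TFCs-CpCs did not overlap, and every EC library was far below both. Shal had 1454 to 3874 counts in the TFCs-CpCs libraries and 16 to 59 counts in the EC libraries, so that it was detected in each of the 12. By group mean it was highest in 1w TFCs-CpCs and then in 4w TFCs-CpCs, control ECs, Smu1 RNAi ECs and 1w ECs with equal means, and 4w ECs. Of the last 3 groups, the 1w ECs overlapped both others. The Smu1 RNAi ECs lay wholly and the 4w ECs partly within the range of the 1w ECs. The Smu1 RNAi ECs and the 4w ECs did not overlap each other.

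**Figure D1:**
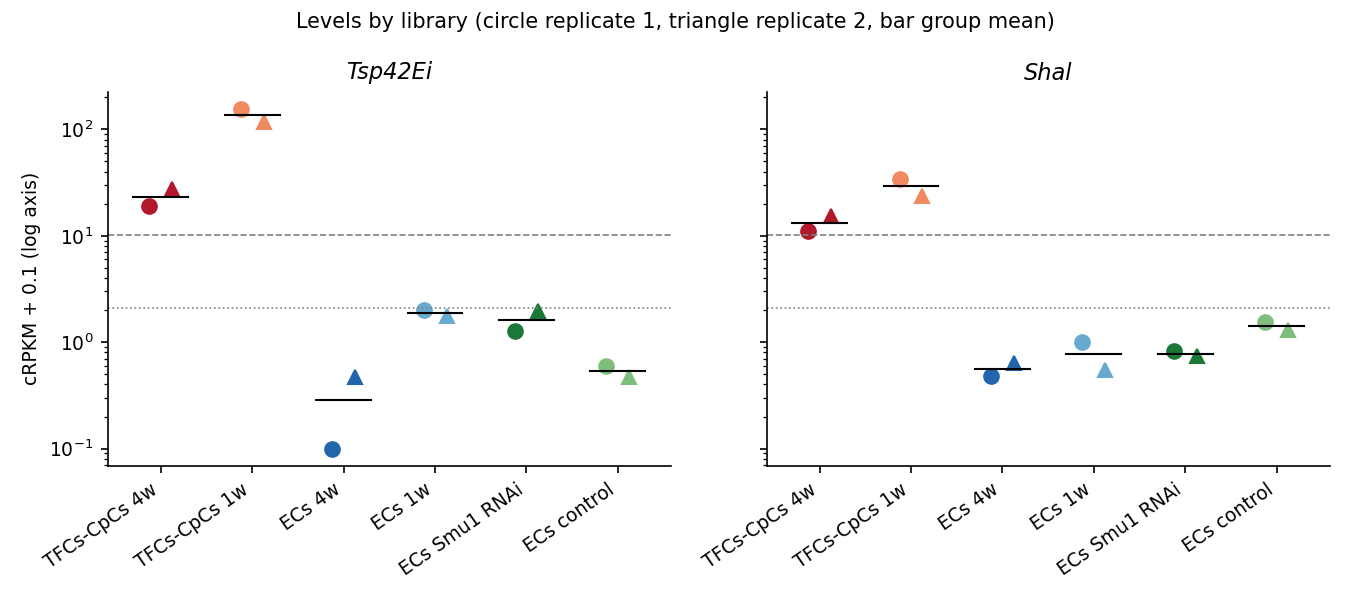
Level of Tsp42Ei (left) and Shal (right) in each of the 12 libraries, as cRPKM + 0.1 on a log axis, with replicate 1 as a circle, replicate 2 as a triangle and the group mean as a bar. The dashed and dotted lines mark the limits of 10 and 2 cRPKM, and in both panels the 4w TFCs-CpCs lie below the 1w TFCs-CpCs, while all 8 EC libraries lie below the dotted line.

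The distance between the cell groups follows from the rule and is given as a description. Over all libraries the mean of Tsp42Ei in TFCs-CpCs was 81.2 times its mean in ECs, and that of Shal 26.8 times. The lowest TFCs-CpCs library was 9.85 times the highest EC library for Tsp42Ei and 7.61 times for Shal. Within the TFCs-CpCs libraries Tsp42Ei ranked above 69.9% and 75.5% of all genes at 4w and above 95.3% and 94.0% at 1w. Shal ranked above 61.1% and 64.3% of all genes at 4w and above 81.5% and 74.4% at 1w. Both were thus genes of middle or fairly high level in TFCs-CpCs and ranked lower at 4w than at 1w.

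Each gene stood close to a limit. Shal, at 11.04 cRPKM in one 4w TFCs-CpCs library, was just above the lower limit, and Tsp42Ei, at 1.92 cRPKM in one 1w EC library, was just below the upper one. On the TFCs-CpCs side the nearest genes left out were Hsc70-2, a heat shock cognate, at 8.17 cRPKM in its lowest library, Frq2, a calcium sensor of synapses, at 7.03 cRPKM, and FBgn0263118 at 6.6 cRPKM. On the EC side they were spartin at 2.01 cRPKM in its highest EC library, htl, an FGF receptor of mesoderm and muscle, at 2.18 cRPKM, and CG6972 at 2.62 cRPKM. Lmx1a, a homeobox gene, and en were above 10 cRPKM in all TFCs-CpCs libraries and failed through EC maxima of 3.45 and 3.19 cRPKM.

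Of 4362 genes at 10 cRPKM or more in all TFCs-CpCs libraries, 4260 exceeded 2 cRPKM in every EC library and 11 were at or under it in 7 of the 8. One library, 1w ECs replicate 1, let only 14 of the 4362 genes pass, against 37 to 49 in the other EC libraries. It had the highest summed level of the muscle list among ECs, 1824 against 494 to 878 cRPKM, and the part of this in its levels was not tested. Without that library 9 genes met the rule, and without 1w ECs replicate 2 or without 4w TFCs-CpCs replicate 1 there were 4. Turned round, with at least 10 cRPKM in all ECs and at most 2 in all TFCs-CpCs, the same limits held for 9 genes.

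**Figure D2:**
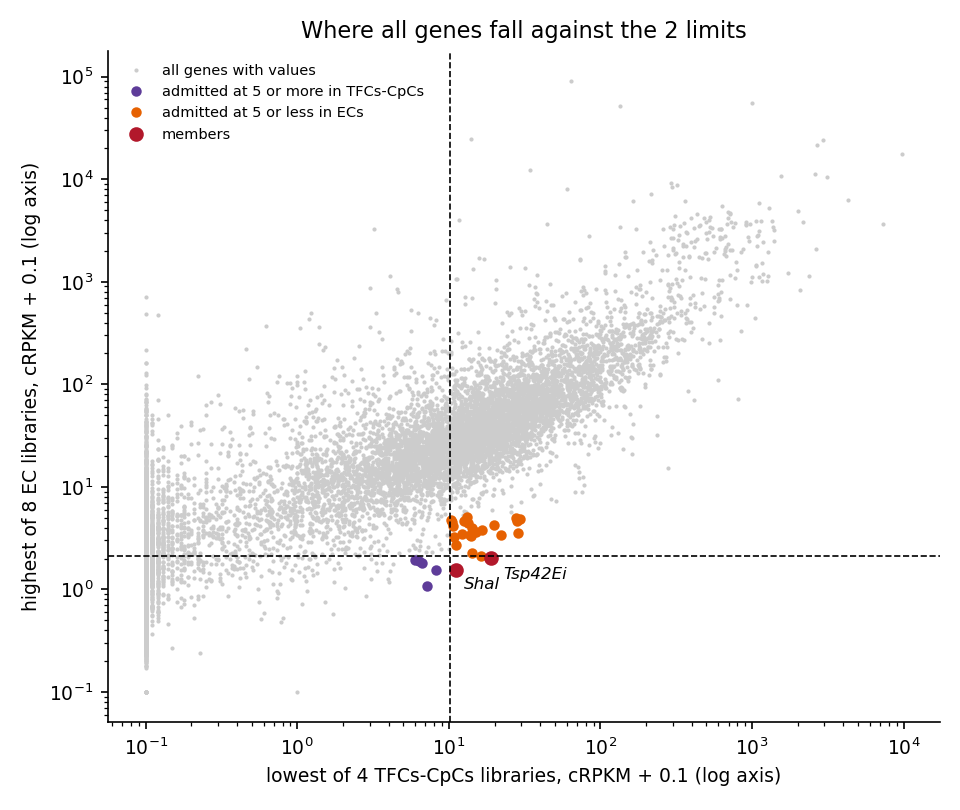
Each gene with values by its lowest level over the 4 TFCs-CpCs libraries (horizontal) and its highest level over the 8 EC libraries (vertical), both as cRPKM + 0.1 on log axes, with the limits as dashed lines. Tsp42Ei and Shal alone fall in the lower right field, and the genes that looser limits of 5 cRPKM admit lie just outside it.

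With age both members had lower levels in TFCs-CpCs, and only that of Tsp42Ei passed the test. The thresholds for a call, in edgeR's quasi-likelihood test, were a log2 fold change of 1 or more in size and an adjusted p below 0.1, with the Benjamini-Hochberg adjustment made over all 9249 genes tested. Tsp42Ei averaged 23.3 ± 6.17 cRPKM at 4w and 136 ± 27.4 cRPKM at 1w (SD, n = 2 each), a ratio of 5.84 between the means with 1w the higher. Its log2 fold change, 4w over 1w, was -2.83 with a standard error of 0.40 and an adjusted p of 0.0248 by edgeR. Shal averaged 13.1 ± 2.97 cRPKM at 4w and 29.0 ± 7.39 cRPKM at 1w (SD, n = 2 each), with 1w at 2.20 times the 4w mean. Its log2 fold change was -1.42 with a standard error of 0.40, an unadjusted p of 0.0128 and an adjusted p of 0.155 by edgeR, so that Shal was not called.

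These counts are set beside the shares over all genes tested. Of these genes, 5.18% were called in either direction, 3.92% lower at 4w and 1.25% higher, beside 1 of the 2 members called lower. The ages did not overlap in cRPKM for 49.8% of the genes tested, with 4w the lower for 17.9%, and both members were of the latter kind. They also did not overlap as CPM, the count relative to the library size scaled by TMM, where Tsp42Ei was at 20.1 and 27.4 in 4w and at 200 and 137 in 1w TFCs-CpCs, and Shal at 26.5 and 34.1 in 4w and at 99.6 and 63.1 in 1w TFCs-CpCs. The median log2 fold change was -2.13 over the members and 0.04 over all genes tested. The rule required at least 10 cRPKM at both ages. On the 1w TFCs-CpCs libraries alone, with the same limit for ECs, 49 genes qualified, and on the 4w TFCs-CpCs libraries alone 5 did.

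The call of Tsp42Ei was lost without 1w TFCs-CpCs replicate 1, the library in which it was highest, where the log2 fold change was -2.54 and the adjusted p by edgeR 0.139. It held under the other 12 alternatives, at log2 fold changes between -3.08 and -2.51. Shal was called under 3 of its 13 alternatives: with DESeq2 (adjusted p = 0.0358), with no filter on low counts (adjusted p = 0.0353 by edgeR) and with all 12 libraries in one edgeR fit (adjusted p = 0.0679). Its log2 fold change stayed negative in each, between -1.72 and -1.06.

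**Figure D3:**
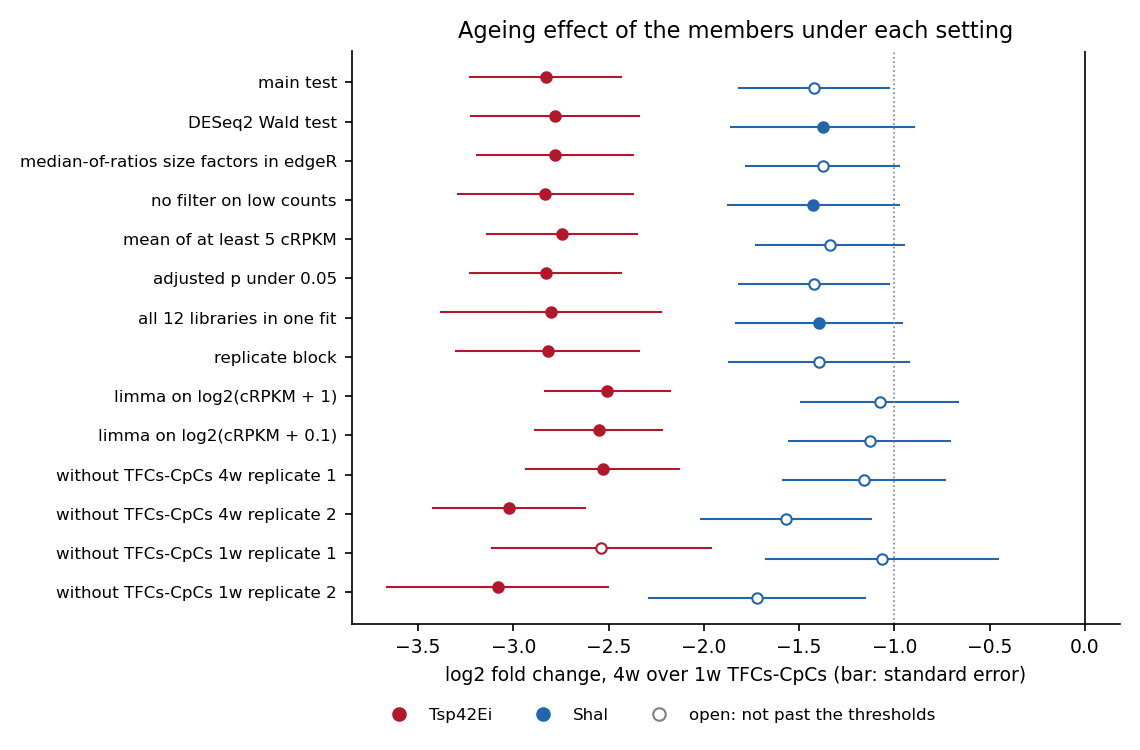
Log2 fold change of Tsp42Ei (red) and Shal (blue), 4w over 1w TFCs-CpCs, in the main edgeR test and under 13 alternatives, with the standard error as a bar. Filled points passed the thresholds of that setting: Tsp42Ei is open only without 1w replicate 1, and Shal is filled in 3 settings.

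The members also changed relative to each other. Tsp42Ei was 1.71 and 1.81 times as high as Shal in the 4w TFCs-CpCs libraries and 4.54 and 4.91 times as high in the 1w TFCs-CpCs libraries, on the cRPKM scale, which is per length. The ranges of this ratio at the 2 ages did not overlap, and since it is formed within a library it does not depend on how libraries are scaled. It was not tested further.

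The summed levels of a muscle list and of a list of late follicle cells differed with age in the same libraries. In TFCs-CpCs the 31 matched genes of the muscle list, such as Mhc, the muscle myosin heavy chain, summed to 2412 and 2759 cRPKM in 4w libraries and to 65266 and 62292 cRPKM in 1w libraries. In the ECs they summed to 494 to 1824 cRPKM. Of the 26 muscle genes tested, 19 were called lower and 1 higher at 4w, with a median log2 fold change of -4.89, and 4 of the 31 (Act79B, TpnC41C, Zasp67 and fln) were at 0 in at least one TFCs-CpCs library. Mhc was at 22.11 and 11.99 cRPKM in 4w TFCs-CpCs and at 1138 and 1315 cRPKM in 1w TFCs-CpCs. The TFCs-CpCs were sorted for strong bab1-Gal4-driven GFP, and which cells passed this sort was not tested here. Both members were higher at the age at which the muscle sum was higher. Per 1000 cRPKM of summed muscle level, Tsp42Ei was at 7.84 and 10.02 in 4w and at 2.38 and 1.87 in 1w TFCs-CpCs, and Shal at 4.58 and 5.52 in 4w and at 0.52 and 0.38 in 1w TFCs-CpCs. Both ratios were higher at 4w than at 1w. The muscle sum was far lower at 4w, and the rule held both members at 10 cRPKM or more there. Higher ratios at 4w were thus largely set in advance, and nothing is drawn from them. Which cells the RNA of the muscle list came from, and its part in the levels of the members, was not tested here.

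Several genes known from the niche had the opposite order of ages. Of 24 tested genes of a list of niche signals and regulators, 3 were called higher and 1 lower at 4w, with a median log2 fold change of 1.64. The level of en, given above, was higher in both 4w than in both 1w libraries (log2 fold change 3.15, adjusted p = 0.0970 by edgeR, lost without either 1w library), and Lmx1a was at 110 and 378 cRPKM in 4w TFCs-CpCs and at 33.7 and 28.3 cRPKM in 1w TFCs-CpCs (2.68, adjusted p = 0.106 by edgeR). Lmx1a was thus not called in the main test, but it was under 9 of 13 alternatives, such as DESeq2 (adjusted p = 0.000102) and the replicate block (adjusted p = 0.0657 by edgeR). Relative to en in the same library, Tsp42Ei was at 0.265 and 0.0928 in 4w and at 11.1 and 5.75 in 1w TFCs-CpCs. Shal relative to en was at 0.155 and 0.0512 in 4w and at 2.45 and 1.17 in 1w TFCs-CpCs. The 20 matched genes of late follicle cells summed to 132837 and 26125 cRPKM in 4w and to 7105 and 2495 cRPKM in 1w TFCs-CpCs. All 20 were tested, and 2 were called higher and 0 lower at 4w, with a median log2 fold change of 2.77. The libraries thus differed by age in that sum as well, and the sum also differed widely between the 4w libraries. In bulk RNA, fewer cells that express a gene and less RNA of it per cell cannot be told apart.

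**Figure D4:**
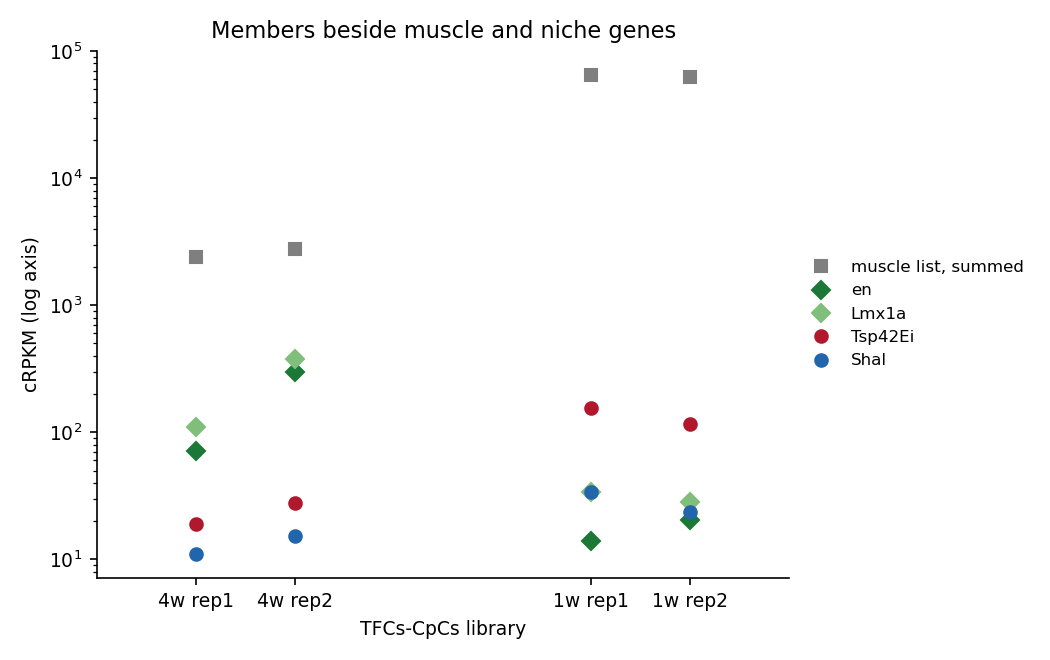
Levels in the 4 TFCs-CpCs libraries, in cRPKM on a log axis, of Tsp42Ei, Shal, en, Lmx1a and the summed muscle list. The muscle sum, Tsp42Ei and Shal are lower in both 4w libraries, and en and Lmx1a are higher in them.

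In ECs neither member was called with age, where 0.103% of 10675 genes tested were called. Tsp42Ei, at 0 and 7 counts in 4w ECs and at 26 and 28 counts in 1w ECs, had a log2 fold change of -3.15 with a standard error of 2.29 (adjusted p = 0.999 by edgeR). The ages did not overlap for it, as for 34.9% of genes tested there. Shal had 16 and 23 counts in 4w ECs and 28 and 17 counts in 1w ECs, with overlapping ages in cRPKM and a log2 fold change of -0.45 (adjusted p = 0.999 by edgeR), which was 0.018 without 1w ECs replicate 1. The standard error of Shal was 1.89 there. In one edgeR fit of all 12 libraries the standard errors were 0.76 for Tsp42Ei (unadjusted p = 0.00144, adjusted p = 0.209) and 0.48 for Shal (adjusted p = 0.871), and neither was called. Whether the ageing effects in TFCs-CpCs and in ECs differ was not tested.

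Knockdown of Smu1, a splicing factor, did not bring a call for either member in ECs. Tsp42Ei was higher in both Smu1 RNAi libraries than in both controls, with 21 and 28 counts in Smu1 RNAi ECs and 9 and 6 counts in control ECs, a log2 fold change of 1.803 with a standard error of 0.71, an unadjusted p of 0.0264 and an adjusted p of 0.358 by edgeR. Shal was lower in both, with 29 and 22 counts in Smu1 RNAi ECs and 59 and 43 counts in control ECs, a log2 fold change of -0.91 with a standard error of 0.49 and an adjusted p of 0.551 by edgeR. Of 9933 genes tested, 1.11% were called in this comparison and 41.1% had groups that did not overlap, as both members had. All these levels were under 2 cRPKM, a fraction of those in TFCs-CpCs.

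Tsp42Ei was compared with the genes of its tandem array that are named Tsp42E, a set chosen once the member was known. The array also holds the tetraspanin gene lbm, which is not counted in the set. It was at 71.9 and 164 cRPKM in 4w and at 223 and 173 cRPKM in 1w TFCs-CpCs and was not called (adjusted p = 0.352 by edgeR). Of 17 Tsp42E genes, 15 were tested for ageing in TFCs-CpCs, and 3 were called lower, none higher, with 12 log2 fold changes below 0 and a median of -1.44. The 3 called were Tsp42Ei, Tsp42Eg and Tsp42Ek. Tsp42Eg, upstream of Tsp42Ei with 1 gene between, was at 55.5 and 41.1 cRPKM in 4w and at 1081 and 789 cRPKM in 1w TFCs-CpCs (log2 fold change -4.54, adjusted p = 0.00965 by edgeR). It reached 22.8 cRPKM in ECs, which kept it out of the rule. Tsp42Ek was at 5.51 and 3.99 cRPKM in 4w and at 55.7 and 40.6 cRPKM in 1w TFCs-CpCs (-3.61, adjusted p = 0.0271 by edgeR, and 0.170 without 1w TFCs-CpCs replicate 1).

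The nearest tetraspanin genes on both sides of Tsp42Ei had lower levels than it in TFCs-CpCs. Tsp42Eh was at 4.24 and 4.37 cRPKM in 4w and at 27.4 and 7.53 cRPKM in 1w TFCs-CpCs, and Tsp42Ej at 11.7 and 8.61 cRPKM in 4w and at 22.7 and 7.97 cRPKM in 1w TFCs-CpCs. Tsp42El had the opposite order of ages to Tsp42Ei, with 175 and 446 cRPKM in 4w and 81.8 and 88.1 cRPKM in 1w TFCs-CpCs (1.59, adjusted p = 0.185 by edgeR, not called). Tsp42Ei was thus neither the most abundant gene of the array in TFCs-CpCs nor the one with the most negative log2 fold change. The latter was Tsp42En among the Tsp42E genes tested (adjusted p = 0.267 by edgeR, not called). Tsp42En was at 0 and 2.98 cRPKM in 4w and at 45.75 and 29.62 cRPKM in 1w TFCs-CpCs. It reached at most 1.98 cRPKM in ECs and so met the limits on the 1w TFCs-CpCs libraries alone. That Tsp42Ei alone of the 17 met both limits at both ages follows from the rule that selected it.

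**Figure D5:**
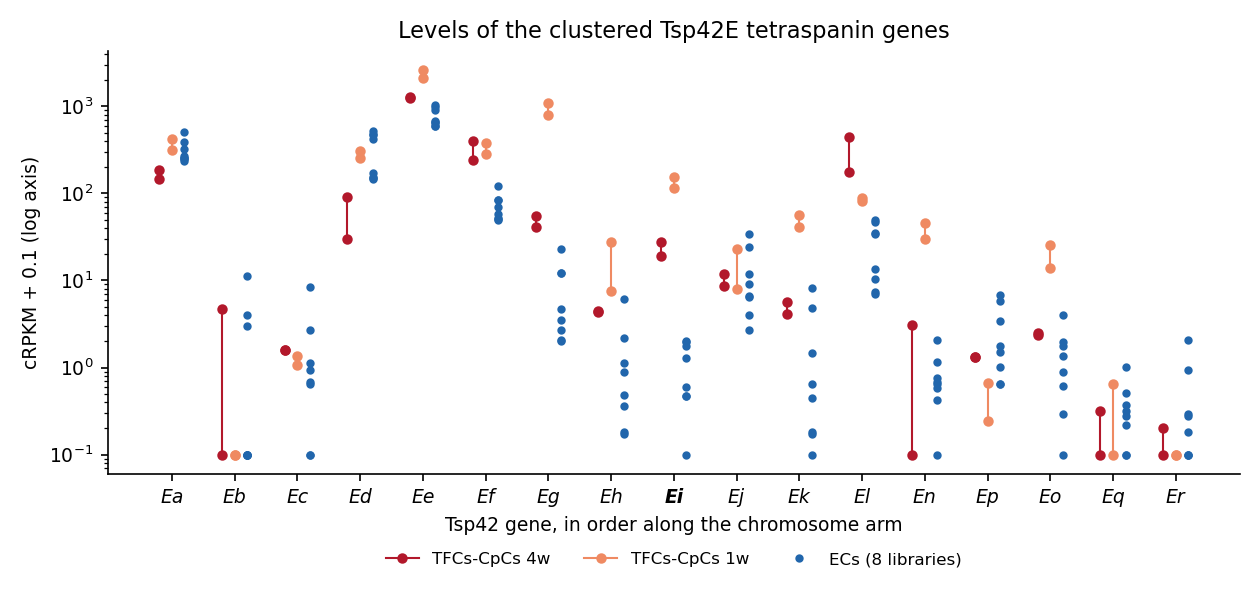
Levels of the 17 Tsp42E genes in order along the chromosome arm, as cRPKM + 0.1 on a log axis, in 4w TFCs-CpCs, 1w TFCs-CpCs and the 8 EC libraries, with lbm not drawn. Tsp42Ei (Ei) lies clear of its EC values at both ages, as do Tsp42Ee, Tsp42Ef, Tsp42Eg and Tsp42El. Tsp42Ei and Tsp42Eg (Eg) are lower at 4w, and Tsp42El (El) is higher at 4w.

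Shal was compared with the fly's other founding voltage-gated potassium channels, Sh, Shab and Shaw, of the Kv1, Kv2 and Kv3 families. None of the 4 was called with age in TFCs-CpCs in the main test. Shaw was at 10.8 and 25.2 cRPKM in 4w and at 17.2 and 16.5 cRPKM in 1w TFCs-CpCs, with overlapping ages, and exceeded 2 cRPKM in 2 EC libraries, at 2.70 and 3.14 cRPKM. Shab was at 0.69 and 0.01 cRPKM in 4w and at 12.03 and 17.52 cRPKM in 1w TFCs-CpCs (log2 fold change -5.59, adjusted p = 0.155 by edgeR). It was called under 8 of 13 alternatives, among them the replicate block, with -6.88 (adjusted p = 0.0323 by edgeR). Sh stayed at or under 2.70 cRPKM in TFCs-CpCs. That Shal alone of these 4 stayed above 10 cRPKM at both ages and under 2 cRPKM in all ECs follows from the rule that selected it.

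Among 95 matched genes of a list of ion channels, 6 were at 10 cRPKM or more in all TFCs-CpCs libraries, and 39 were at 2 cRPKM or less in all ECs. Shal alone met both limits, which are those of the rule that selected it. The other 5 of the 6 were Shaw, pain, pyx, Clic and GluRIIA. In the ageing test of TFCs-CpCs 69 of the 95 were tested, and 7 were called lower and 1 higher, with a median log2 fold change of -0.33. Shal was not among the 7, which included the calcium channel subunits Ca-alpha1D and Ca-alpha1T and the glutamate receptor subunits GluRIIC and GluRIIE of the neuromuscular junction. The log2 fold change of Shal, -1.42, was further below 0 than the median of the list. It was nearer to 0 than those of Ca-alpha1D (-4.93) and Ca-alpha1T (-2.56), which were picked from the 7 called lower. The rule also required Shal to be at 10 cRPKM or more at both ages. The differences between genes were not tested.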

How the data were processed

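Gene-level values of 12 RNA-seq libraries were used. The authors ran vast-tools on the reads for dm6 and deposited, per gene and library, unnormalized read counts and cRPKM (an RPKM corrected for mappable length). Libraries were strand-specific, and the use of strand in counting is not given in the sources used here. Of 14489 genes listed, 763 had no value. Names and positions came from the BDGP6 annotation (13506 genes matched).

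The members and the gene lists were chosen with earlier results of these data known. Members were found on cRPKM. Ageing and RNAi effects were tested on counts with edgeR 4.0.16 in R 4.3.3 (TMM, quasi-likelihood test, each comparison on its own 4 libraries, a minimum of 10 counts in 2 or more libraries), with Benjamini-Hochberg adjustment over all genes tested. A standard error is the absolute log2 fold change divided by the square root of F. The procedure was tested on simulated data. Alternatives were DESeq2 1.42.0, limma 3.58.1 on log2(cRPKM + 1) or log2(cRPKM + 0.1), other scalings, filters and thresholds, a replicate block and the omission of each library. The rule for named genes took called members, members by level and role, and the 3 genes nearest each limit. With 2 members it named both. The other Tsp42E and potassium channel genes, and the named ion channels, were added after their values were seen. No sequence was used. Python 3.11.15 and pandas 2.3.3 were used for the tables.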

Additional observations from a re-analysis of the deposited data

How the results depend on the processing

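Each group has 2 libraries, which limits the precision, and in ECs the members rest on at most 59 counts. The number of members was 7 at a limit of at least 5 cRPKM in TFCs-CpCs, 0 at 20, 0 at a limit of at most 1 cRPKM in ECs, 25 at 5 and 4 without the RNAi experiment. It ranged from 2 to 9 when 1 library was left out. Chosen after seeing the data were the leaving out of EC libraries, the 1w libraries alone (49 genes), the 4w libraries alone (5) and the use of group means (17).

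Of the members, 2 were called with age in TFCs-CpCs with DESeq2, without a count filter and in the fit of all 12 libraries, and 0 to 1 when 1 library was left out. Shal had log2 fold changes of -1.38, -1.43 and -1.40 there, and from -1.72 to -1.06 with 1 library left out. Tsp42Ei ranged from -3.08 to -2.53 with 1 library left out. With the replicate number as a block in edgeR the values were -2.82 (adjusted p = 0.0126) for Tsp42Ei and -1.40 (adjusted p = 0.185) for Shal, and the block changed no call of a member. Libraries with the same number deviated together little in the ageing comparisons (correlations of -0.04 in TFCs-CpCs and -0.03 in ECs) and more in the RNAi experiment (0.22). The members' median lay between -2.40 and -1.79 under its 13 alternatives.

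The genes called over the whole table numbered 479 in the main test, 1423 with DESeq2, 1206 with no filter, 1665 with all 12 libraries, 287 at an adjusted p under 0.05, 172 without 1w TFCs-CpCs replicate 1 and 1246 without 4w replicate 1. The median log2 fold change of all genes was 0.22 and 0.26 in the limma fits on log2(cRPKM + 1) and log2(cRPKM + 0.1), against 0.04 in the main test, and relative to it both members stayed lower at 4w. In ECs with age and under Smu1 RNAi 0 members were called under every alternative that tested them, with 0 and 1 at an unadjusted p under 0.05 in the main edgeR tests. The 1 was Tsp42Ei, which passed the count filter only through the Smu1 RNAi libraries. A mean of at least 5 cRPKM left neither member to test in either EC comparison. Shal with age in ECs ranged from -0.83 to 0.018 with 1 library left out, above 0 only without 1w ECs replicate 1. Fold changes of 11 other genes had the direction of the main test under all 143 combinations with an alternative, with the call lost in 4 and gained in 29.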
